A study of Saccharomyces cerevisiae with 8 samples.

Results

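Respiratory complexes II to V and cytochrome c were followed through the 39 nuclear genes that encode their structural subunits, of 6170 genes in the tables. They were taken by their standard gene names from each library's table: 4 genes of succinate dehydrogenase (complex II), 9 of the cytochrome bc1 complex (complex III), 2 of cytochrome c, 9 of cytochrome c oxidase (complex IV) and 15 of ATP synthase (complex V, with its inhibitor). Yeast was sampled in 4 groups of 2 libraries, each from duplicate bioreactor fermentations. BSGX001 at the GX stage was taken at 14 h of a fermentation begun on glucose plus xylose (each at 20 g/L), after the glucose was gone. BSGX001 at the X stage was taken at 12 h with 20 g/L xylose as the only sugar. XH7 was sampled at the same GX and X stages. The bioreactors were sparged with air, and the study gives no oxygen level of the cultures. It reports slower growth at the GX stage. The stages therefore differ in sampling time and growth as well as in sugar history, and the parts of these in a stage change cannot be told apart.

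BSGX001 is a haploid derived from the laboratory strain CEN.PK113-5D. Its listed alterations are Ru-XI (a xylose isomerase), XK (xylulokinase), gre3::PPP (pentose phosphate pathway genes in place of the aldose reductase gene GRE3), cox4Δ and adaptive evolution in xylose. XH7 is a diploid with pho13::XI, gre3::PPP, XK, 3δ::XI and the same kind of evolution. The study's introduction states PHO13 deletions for both strains, whereas its strain list gives pho13 for XH7 alone. GEO's labels trace both strains to CEN.PK113-5D, whereas the study's methods trace XH7 to a diploid wild isolate. The strains therefore differ in ploidy, in integrations, in evolution history and perhaps in parent as well as in COX4, and the parts of these in a strain difference cannot be told apart. Each strain is 1 evolved clone.

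The respiratory chain passes electrons from succinate and NADH through ubiquinone, complex III, cytochrome c and complex IV to oxygen, and complex V makes ATP with the proton gradient that complexes III and IV build. Budding yeast has no proton-pumping complex I, and single-subunit NADH dehydrogenases take its place. Glucose represses most of these genes, and the Hap2/3/4/5 complex, which binds CCAAT boxes, activates many of them once glucose is gone. Part of the chain is encoded in mitochondrial DNA. For 7 such subunit genes (COX1, COX2, COX3, COB, ATP6, ATP8 and OLI1) the tables hold no row under their R64 names, so they could not be analysed.

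Library totals ran between 5279864 and 7675099 expected counts. COX4, the gene deleted in BSGX001, had 0 counts in all 4 BSGX001 libraries. STE2, the alpha-factor receptor gene that haploid a cells express and diploids repress, had 407 to 581 CPM (counts scaled to library size with TMM factors) in BSGX001 and 16.9 to 19.1 CPM in XH7. Duplicates of a group differed beyond sampling noise in every group. Among the 38 subunit genes other than COX4, 33 were higher in replicate 1 than in replicate 2 of XH7 at the GX stage, by a median of 0.19 on the log2 scale. In XH7 at the X stage 3 of 38 were higher in replicate 1, with a median of -0.14. The medians were 0.01 and 0.05 in BSGX001 at the GX and X stages.

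The subunit genes were higher at the GX stage than at the X stage in both strains. In BSGX001, 20 of 38 testable genes rose and none fell at an adjusted p of 0.05 or less (edgeR), against 23.0% of all 5921 genes tested that rose and 24.7% that fell. In XH7, 29 of 39 rose and none fell, against 26.7% and 22.0% of all genes. Without adjustment the number fallen at a p of 0.05 or less was also 0 in both strains, and the DESeq2 Wald test called 0 lower. The median change of the subunit genes was 0.34 on the log2 scale in BSGX001 and 0.62 in XH7, where the medians of all genes were -0.02 and 0.04. In BSGX001, 36 of the 39 had both GX libraries above both X libraries, a pattern that 38.0% of all genes showed, and in XH7 31 of 39 did, against 39.9% of all genes. The reverse pattern was shown by 0 of 39 in both strains, against 41.1% of all genes in BSGX001 and 34.7% in XH7. The changes were mostly small. At 2-fold or more, CYC7 was the 1 gene called higher in BSGX001, and COX7, COX12 and ATP20 were the 3 called higher in XH7, against 6.77% and 6.57% of all genes. None was called lower at that size in either strain, against 2.03% of all genes in BSGX001 and 5.88% in XH7.

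The same genes did not all pass in both strains: 15 rose in both, 5 in BSGX001 but not in XH7, 13 in XH7 but not in BSGX001, and 5 in neither (SDH2, CYT1, ATP1, ATP2 and ATP7), with COX4 left out. The share of all genes in each of these classes was not counted, so no excess can be read from them. Together the 39 genes took 2.703% and 2.68% of counts in BSGX001 at the GX stage, against 2.183% and 2.027% at the X stage. In XH7 they took 2.264% and 1.955% at the GX stage, against 1.292% and 1.348% at the X stage. The counts of risen genes depend on single libraries. In BSGX001 the count fell whichever BSGX001 library was left out, and the share of all genes that rose fell too. The median of the subunit genes was then 0.31 and 0.36 without GX replicates 1 and 2 (all genes, -0.02 and -0.03). It was 0.38 and 0.32 without X replicates 1 and 2 (all genes, -0.01 in both cases). In XH7 the count fell most without X replicate 1, where the median without COX4 was 0.51 (all genes, 0.01). That median was 0.46 without GX replicate 1 (all genes, 0.04). Upper-quartile scaling, which moved the median of all genes in BSGX001 to -0.13, left 9 risen genes there, against 18.0% of all genes.

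**Figure D1:**
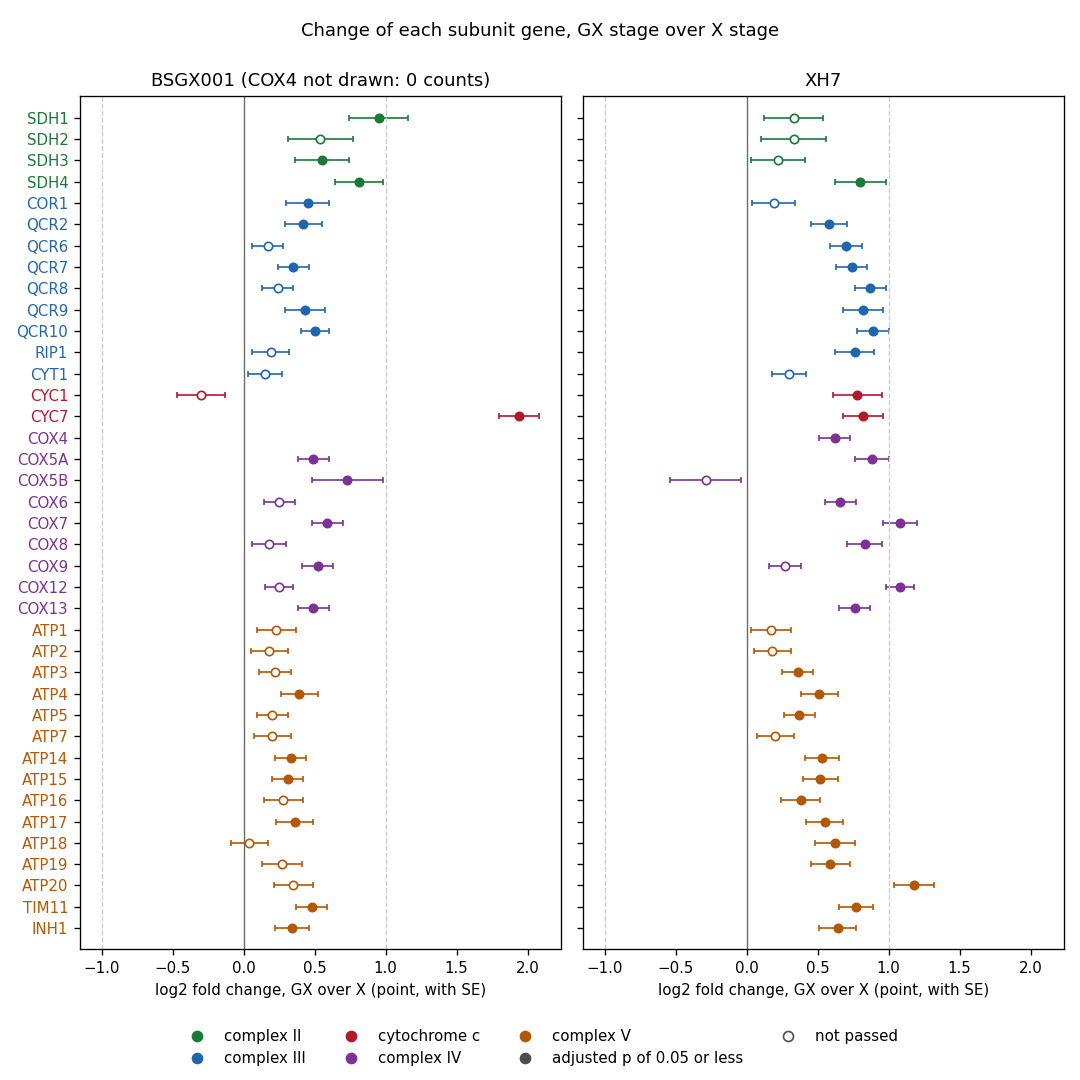
Log2 fold change (horizontal axis) of each subunit gene (rows, coloured by complex), GX stage over X stage, in BSGX001 (left) and XH7 (right); bars are the standard error of the fit and filled points passed an adjusted p of 0.05. In BSGX001 20 genes rose and CYC1 lies lowest at -0.30, whereas in XH7 29 rose and COX5B lies lowest at -0.29.

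Complex II oxidises succinate to fumarate and feeds ubiquinone. It was the complex with the highest median change in BSGX001 among II, III, IV and V (0.68) and the lowest in XH7 (0.33). SDH1, the flavoprotein subunit, had 1386 and 1447 CPM in BSGX001 at the GX stage, against 835 and 631 CPM at the X stage. Both GX libraries lay above both X libraries, and SDH1 rose by 0.95 ± 0.21 (log2, SE; adjusted p = 0.0055). In XH7 it had 1050.2 and 692 CPM at the GX stage, against 619 and 763 CPM at the X stage, which overlap (0.33 ± 0.21, adjusted p = 0.217). The membrane anchor gene SDH4 rose by 0.81 ± 0.17 in BSGX001 and by 0.80 ± 0.18 in XH7, a call lost in XH7 without X replicate 1 (adjusted p = 0.0553).

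SDH4 had 430.1 and 438 CPM in BSGX001 at the GX stage, against 269.7 and 224 CPM at the X stage, and in XH7 376 and 267 CPM at the GX stage, against 166 and 202 CPM at the X stage. In neither strain did the stages overlap. The other anchor gene, SDH3, had 378 and 388 CPM in BSGX001 at the GX stage, against 267 and 255 CPM at the X stage. It rose by 0.55 ± 0.19 (adjusted p = 0.0405), a call lost when any 1 of the 4 BSGX001 libraries was left out. In XH7, SDH3 had 508 and 321 CPM at the GX stage, against 320.3 and 391 CPM at the X stage, and the stages overlapped (0.22 ± 0.19, adjusted p = 0.373). Without XH7 GX replicate 1 the XH7 stage changes of SDH1, SDH2 and SDH3 were -0.00, -0.01 and -0.15. Without XH7 GX replicate 2 they were 0.60, 0.60 and 0.51, and SDH1 and SDH3 then passed (adjusted p = 0.0378 and 0.0214).

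SDH2, the iron-sulfur subunit, had the largest positive strain difference of any subunit gene. It had 1370.3 and 1352 CPM in BSGX001 at the GX stage, against 518 and 340.1 CPM in XH7 at that stage. At the X stage it had 1109 and 764 CPM in BSGX001, against 299.9 and 383 CPM in XH7. All 4 BSGX001 libraries lay above all 4 XH7 libraries. SDH2 was higher by 1.66 ± 0.23 at the GX stage (adjusted p = 2.05e-04) and by 1.46 ± 0.23 at the X stage (adjusted p = 6.82e-04), and no left-out library ended either call. Its stage changes of 0.54 ± 0.23 in BSGX001 and 0.33 ± 0.23 in XH7 did not pass (adjusted p = 0.0775 and 0.262). The BSGX001 change passed without BSGX001 X replicate 1 (0.85, adjusted p = 0.0239), without either XH7 GX library (0.54 in both cases, adjusted p = 0.0423 and 0.0425) and with the DESeq2 Wald test (adjusted p = 0.0207), and was 0.29 without BSGX001 X replicate 2. The other subunits did not share the strain difference in size: at the GX stage SDH1 was higher by 0.70 ± 0.21 (adjusted p = 0.0147) and SDH4 by 0.43 ± 0.17 (adjusted p = 0.0492), while SDH3 stood at -0.11 ± 0.19 (adjusted p = 0.617). SDH1 lost its call without BSGX001 GX replicate 2 or XH7 GX replicate 2, and SDH4 lost it in 5 of the 8 cases of a library left out. SDH3 passed as lower without XH7 GX replicate 2 (-0.41, adjusted p = 0.037). SDH1, SDH3 and SDH4 at the X stage stood at 0.09, -0.45 and 0.42 and did not pass. Without either XH7 GX library SDH3 passed there as lower and SDH4 as higher, and SDH4 also did without BSGX001 X replicate 2 (0.55, adjusted p = 0.0427).

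The upstream region of SDH2 is shown because this gene had the largest positive strain difference and its window holds CCAAT. The window is the 300 bases from 400 to 101 before the start codon in RefSeq's R64 assembly, chrXII:54032-54331 on the minus strand, written 5′ to 3′ along the gene. Capitals mark CCAAT on either strand (ATTGG where it reads on the other strand). The sequence is that of the reference strain and not of BSGX001 or XH7.
SDH2: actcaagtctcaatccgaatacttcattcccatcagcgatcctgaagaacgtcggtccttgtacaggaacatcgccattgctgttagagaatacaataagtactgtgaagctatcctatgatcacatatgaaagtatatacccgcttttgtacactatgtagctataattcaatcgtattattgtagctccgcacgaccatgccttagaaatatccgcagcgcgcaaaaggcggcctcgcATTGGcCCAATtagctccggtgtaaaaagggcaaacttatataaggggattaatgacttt

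SDH2 has CCAAT at 160 and 154 bases before its start codon, on opposite strands and 6 bases apart. Of the 39 windows of the subunit genes 35 hold CCAAT (89.7%), where 2636 of 6001 windows of all genes do (43.9%). The 4 without it are CYT1, CYC1, CYC7 and COX4. All 4 windows of complex II and all 15 of complex V hold it, as do 8 of 9 of complex III and 8 of 9 of complex IV. ATTGTT, the core of the site of the hypoxic repressor Rox1, is in 10 of the 39 windows (25.6%) on either strand and in 31.9% of all windows. These are matches of letters and were not set against the expression values by a test.

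Complex III passes electrons from ubiquinol to cytochrome c. In BSGX001 5 of its 9 genes rose at the GX stage, with a median of 0.35, and in XH7 7 of 9 rose, with a median of 0.74. QCR10, a small peripheral subunit, had 173 and 186 CPM in BSGX001 at the GX stage, against 126 and 128 CPM at the X stage. It had 144 and 138 CPM in XH7 at the GX stage, against 69.3 and 82.5 CPM at the X stage. The stages did not overlap in either strain, and QCR10 rose most within the complex in both, by 0.50 ± 0.10 in BSGX001 (adjusted p = 0.00364) and 0.89 ± 0.11 in XH7 (adjusted p = 1.92e-04). The core protein genes COR1 and QCR2 and the small subunit genes QCR7 and QCR9 also rose in BSGX001. In XH7 QCR2, QCR6, QCR7, QCR8, QCR9 and RIP1, the Rieske iron-sulfur protein gene, rose beside QCR10.

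CYT1, the cytochrome c1 gene, passed in neither strain and was the least changed gene of the complex in BSGX001 (0.15 ± 0.12), and in XH7 that was COR1 (0.19 ± 0.15). QCR8 had 520.1 and 518 CPM in BSGX001 at the GX stage, against 459 and 421 CPM at the X stage. In XH7 it had 466 and 446 CPM at the GX stage, against 237 and 263 CPM at the X stage. The X stage of XH7 stood apart from the other 3 groups. QCR8 stood at 0.24 ± 0.11 in BSGX001 (adjusted p = 0.0957) and rose by 0.87 ± 0.11 in XH7 (adjusted p = 2.44e-04). QCR6, the acidic hinge subunit gene, had 637 and 702 CPM in BSGX001 at the GX stage, against 627 and 562 CPM at the X stage, and in XH7 742 and 739 CPM at the GX stage, against 443 and 469 CPM at the X stage. It stood at 0.17 ± 0.11 in BSGX001 (adjusted p = 0.241) and rose by 0.70 ± 0.11 in XH7 (adjusted p = 9.84e-04).

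Cytochrome c carries electrons from complex III to complex IV and has an aerobic isoform, CYC1, and a second isoform, CYC7, known for higher expression at low oxygen. CYC7 rose in both strains, whereas CYC1 rose in XH7 and did not pass in BSGX001. CYC1 had 598 and 646 CPM in BSGX001 at the GX stage, against 915 and 621 CPM at the X stage. In XH7 it had 876 and 913 CPM at the GX stage, against 491 and 547 CPM at the X stage. The stages overlapped in BSGX001 and were apart in XH7. CYC1 stood at -0.30 ± 0.17 in BSGX001 (adjusted p = 0.169), where it was the only subunit gene with a negative change, and rose by 0.78 ± 0.17 in XH7 (adjusted p = 0.0047). The XH7 call was lost without X replicate 1 (adjusted p = 0.0525), and without BSGX001 X replicate 1 the BSGX001 change was 0.02. Without BSGX001 X replicate 2 CYC1 passed as lower in BSGX001 (-0.56, adjusted p = 0.00623).

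CYC7 had 183 and 189 CPM in BSGX001 at the GX stage, against 44.9 and 51.7 CPM at the X stage. In XH7 it had 453 and 392 CPM at the GX stage, against 212 and 267 CPM at the X stage. Every XH7 library lay above every BSGX001 library, and in each strain the GX libraries lay above the X libraries. CYC7 rose by 1.94 ± 0.14 in BSGX001 (adjusted p = 2.43e-05), the largest stage change among the subunit genes in that strain, and by 0.82 ± 0.14 in XH7 (adjusted p = 0.00108). Between the strains CYC7 was lower in BSGX001, at -1.18 ± 0.14 at the GX stage (adjusted p = 6.29e-05) and -2.31 ± 0.15 at the X stage (adjusted p = 4.49e-06). No left-out library ended any of these CYC7 calls. CYC1 was lower in BSGX001 at the GX stage (-0.52 ± 0.17, adjusted p = 0.0219) and higher at the X stage (0.56 ± 0.17, adjusted p = 0.0197). Each of those CYC1 calls was lost without any 1 of 3 libraries: either BSGX001 GX library or XH7 GX replicate 2 for the first, and BSGX001 X replicate 1 or either XH7 X library for the second. The first was also lost with log2(FPKM + 1) in place of counts (-0.39, adjusted p = 0.0649).

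CYC1 and CYC7 are 78.1% identical over their coding bases, so that reads may have been shared between them, and the way the authors' counting treated such reads is not given in the sources used here. Set per length, CYC7 made up 22.7% and 21.9% of the FPKM of the pair in BSGX001 at the GX stage, against 4.50% and 7.39% at the X stage. In XH7 its share was 33.1% and 29.2% at the GX stage, against 29.2% and 31.9% at the X stage. The share differed between the stages in BSGX001 without overlap and overlapped between the stages in XH7. The windows of both genes are shown because they are among the 4 with neither orientation of CCAAT, and no letters are capitalised in them. Lack of this exact match in this window does not show that a gene lacks a site of the Hap complex. That of CYC1 is chrX:525935-526234 on the plus strand and that of CYC7 chrV:80078-80377 on the minus strand, both in R64.
CYC1: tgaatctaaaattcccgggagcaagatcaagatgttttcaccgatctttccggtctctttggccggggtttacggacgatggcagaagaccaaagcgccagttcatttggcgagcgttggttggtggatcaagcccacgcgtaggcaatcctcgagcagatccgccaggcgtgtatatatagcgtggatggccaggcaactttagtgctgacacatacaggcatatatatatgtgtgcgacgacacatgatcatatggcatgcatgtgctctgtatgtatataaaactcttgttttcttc
CYC7: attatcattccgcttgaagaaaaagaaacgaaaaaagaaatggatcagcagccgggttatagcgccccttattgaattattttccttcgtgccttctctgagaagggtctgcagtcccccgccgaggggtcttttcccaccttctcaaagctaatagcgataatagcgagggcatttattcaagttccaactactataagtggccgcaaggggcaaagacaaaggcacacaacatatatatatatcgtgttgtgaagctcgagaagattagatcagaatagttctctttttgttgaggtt

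**Figure D2:**
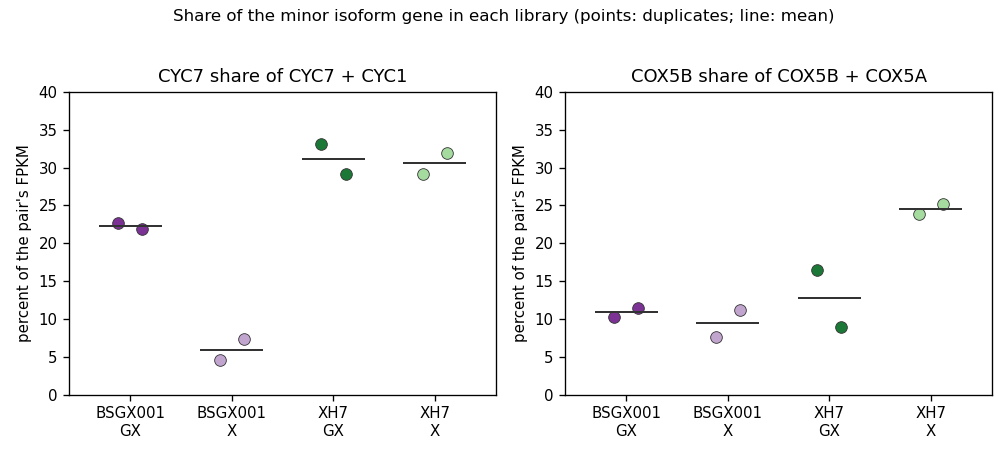
Percent of the pair's FPKM (vertical axis) held by CYC7 of CYC7 and CYC1 (left) and by COX5B of COX5B and COX5A (right) in each library; points are duplicates and lines their mean. The CYC7 share of BSGX001 lies at 22.7% and 21.9% at the GX stage and at 4.50% and 7.39% at the X stage.

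Complex IV reduces oxygen with the electrons of cytochrome c. COX4 encodes a subunit that yeast needs to assemble the complex, and BSGX001 lacks the gene. COX4 had 0 counts in BSGX001, against 426 and 409 CPM in XH7 at the GX stage and 253 and 288 CPM at the X stage. With a floor of 3 counts per library COX4 was at least 1062-fold lower in BSGX001 at the GX stage and at least 647-fold lower at the X stage. In XH7 it rose by 0.62 ± 0.11 at the GX stage (adjusted p = 0.00279). The transcripts of the other 8 nuclear genes of complex IV were all present in BSGX001, with 8 of 8 positive stage changes (median 0.49) of which 5 passed: COX5A, COX5B, COX7, COX9 and COX13. In XH7 7 of 9 rose (median 0.76), and COX5B and COX9 did not pass.

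COX7, a small membrane subunit gene, had 219.7 and 194 CPM in BSGX001 at the GX stage, against 129 and 145 CPM at the X stage. Its XH7 values were 158 and 166 CPM at the GX stage, against 70.6 and 82.1 CPM at the X stage. The stages did not overlap, and COX7 rose by 0.59 ± 0.11 in BSGX001 (adjusted p = 0.00255) and by 1.08 ± 0.12 in XH7 (adjusted p = 1.18e-04). COX12, which encodes subunit VIb on the intermembrane side, had 279 and 278 CPM in BSGX001 at the GX stage, against 239.6 and 229.8 CPM at the X stage. The XH7 libraries had 335 and 364 CPM at the GX stage, against 163 and 168 CPM at the X stage. The groups ran without overlap, with XH7 highest at the GX stage and lowest at the X stage. COX12 stood at 0.25 ± 0.10 in BSGX001 (adjusted p = 0.062), which passed without either XH7 GX library (adjusted p = 0.0438 and 0.0437), and rose by 1.08 ± 0.10 in XH7 (adjusted p = 5.18e-05). Its strain difference turned with the stage, at -0.33 ± 0.10 at the GX stage (adjusted p = 0.0145) and 0.50 ± 0.10 at the X stage (adjusted p = 0.00216). The first was lost without either BSGX001 GX library or XH7 GX replicate 2, and with library totals (adjusted p = 0.0702).

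COX8, another small subunit gene, had 135 and 130.0 CPM in BSGX001 at the GX stage, against 125 and 109 CPM at the X stage, and in XH7 134 and 129.8 CPM at the GX stage, against 66.3 and 82.1 CPM at the X stage. At the GX stage the strains overlapped, and at the X stage every BSGX001 value lay above every XH7 value. It stood at 0.18 ± 0.12 in BSGX001 (adjusted p = 0.234) and rose by 0.83 ± 0.12 in XH7 (adjusted p = 5.46e-04). The window upstream of COX12 is shown because it holds the most CCAAT among the 39 windows, with 4 copies at 370, 335, 287 and 205 bases before the start codon. It is chrXII:225273-225572 on the minus strand in R64, and capitals mark CCAAT on either strand.
COX12: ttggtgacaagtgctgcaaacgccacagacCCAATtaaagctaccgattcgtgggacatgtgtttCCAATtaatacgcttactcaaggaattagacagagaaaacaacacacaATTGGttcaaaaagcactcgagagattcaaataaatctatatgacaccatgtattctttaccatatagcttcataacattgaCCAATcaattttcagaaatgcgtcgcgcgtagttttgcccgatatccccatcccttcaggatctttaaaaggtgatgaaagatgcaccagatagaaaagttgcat

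Subunit V of complex IV has an aerobic isoform gene, COX5A, and COX5B, the isoform known for expression at low oxygen. COX5A had 1027 and 996 CPM in BSGX001 at the GX stage, against 743 and 696 CPM at the X stage. XH7 had 726 and 814 CPM at the GX stage, against 405 and 433 CPM at the X stage. The stages were apart in both strains, and COX5A rose by 0.49 ± 0.11 in BSGX001 (adjusted p = 0.00671) and by 0.88 ± 0.12 in XH7 (adjusted p = 2.95e-04). The BSGX001 call was lost without GX replicate 1 (adjusted p = 0.0557). COX5A was higher in BSGX001 by 0.39 ± 0.11 at the GX stage (adjusted p = 0.0124) and by 0.78 ± 0.12 at the X stage (adjusted p = 4.28e-04). The first of these was lost without either BSGX001 GX library or XH7 GX replicate 1.

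COX5B had 117 and 126 CPM in BSGX001 at the GX stage, against 60.0 and 86.4 CPM at the X stage. Its XH7 values were 142 and 78.4 CPM at the GX stage, against 126 and 144 CPM at the X stage. The XH7 duplicates at the GX stage lay farther apart than the stages did. COX5B rose by 0.73 ± 0.25 in BSGX001 (adjusted p = 0.0362), a call lost without either GX library or X replicate 1, and stood at -0.29 ± 0.25 in XH7 (adjusted p = 0.364), where it was 0.07 without GX replicate 2 and passed as lower without GX replicate 1 (-0.78, adjusted p = 0.0169). At the X stage it was lower in BSGX001 (-0.88 ± 0.25, adjusted p = 0.0146), a call lost without BSGX001 X replicate 1 or XH7 X replicate 2 and with library totals (adjusted p = 0.0611). With COX4 left out, COX5B was the least abundant subunit gene of the complex per length in all 8 libraries. Its share of the FPKM of COX5A and COX5B was 10.3% and 11.4% in BSGX001 at the GX stage, against 7.58% and 11.2% at the X stage, and in XH7 16.5% and 8.90% at the GX stage, against 23.9% and 25.2% at the X stage.

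**Figure D3:**
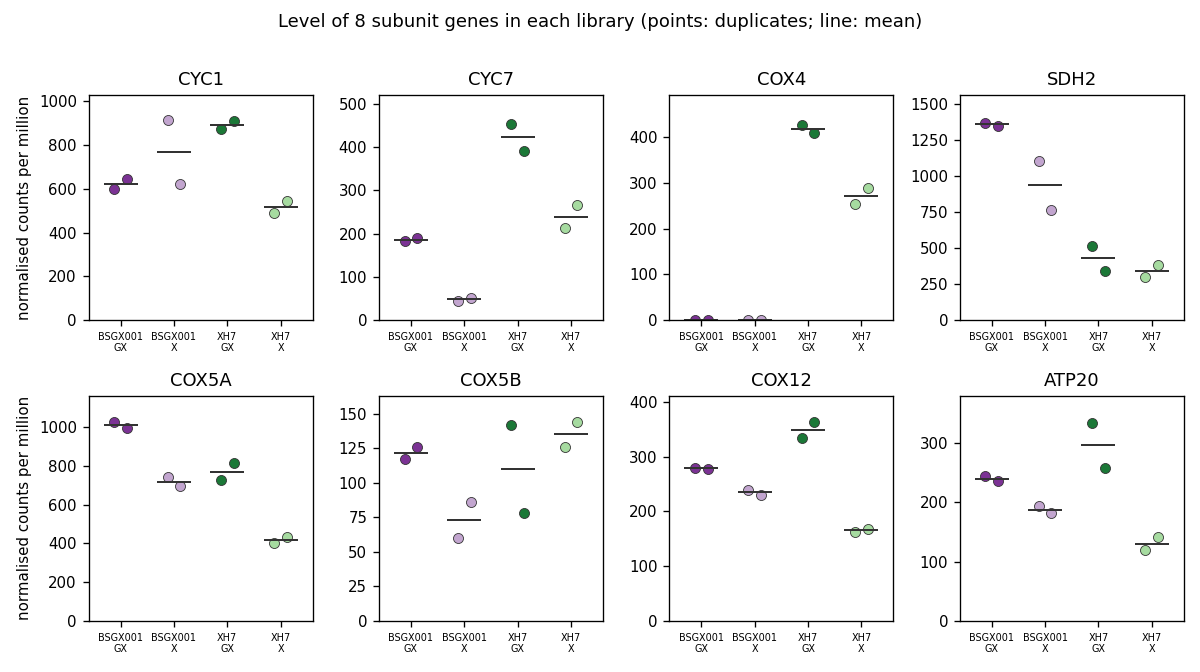
Normalised CPM (vertical axis, from 0) of 8 subunit genes in each library; points are duplicates and lines their mean. CYC1 is highest in XH7 at the GX stage and in 1 BSGX001 library at the X stage, CYC7 is lowest in BSGX001 at the X stage, COX4 is at 0 in BSGX001, and SDH2 is higher in all BSGX001 libraries than in all XH7 libraries.

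Complex V turns the proton gradient into ATP with a catalytic F1 head, a membrane rotor and a stator. In BSGX001 6 of 15 genes rose at the GX stage (ATP4, ATP14, ATP15, ATP17, TIM11 and INH1), with a median of 0.28, and in XH7 12 of 15 rose, with a median of 0.52. The genes of the catalytic head that are largest by count, ATP1 (alpha) and ATP2 (beta), passed in neither strain, and neither did the stator gene ATP7. In XH7 the smallest change was that of ATP1 (0.17 ± 0.14, adjusted p = 0.32) and the largest was that of ATP20. ATP20, the gene of subunit g, which helps ATP synthase form dimers, had 244 and 236 CPM in BSGX001 at the GX stage, against 194 and 182 CPM at the X stage. The XH7 libraries had 335 and 258 CPM at the GX stage, against 120.1 and 141 CPM at the X stage. The stages were apart in both strains, and XH7 at the X stage lay lowest. ATP20 rose by 1.18 ± 0.14 in XH7 (adjusted p = 1.71e-04) and stood at 0.35 ± 0.14 in BSGX001 (adjusted p = 0.06), which passed without either XH7 GX library (adjusted p = 0.0213 and 0.0222).

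TIM11, the gene of subunit e and a partner of subunit g in dimers, rose by 0.48 ± 0.11 in BSGX001 (adjusted p = 0.00717), the largest change of the complex there, and lost the call without GX replicate 2 (adjusted p = 0.0549). ATP18, the gene of subunit i/j, had 58.5 and 46.4 CPM in BSGX001 at the GX stage, against 50.7 and 51.1 CPM at the X stage. XH7 had 63.6 and 57.5 CPM at the GX stage, against 36.7 and 41.7 CPM at the X stage. The stages overlapped in BSGX001 and were apart in XH7. ATP18 stood at 0.04 ± 0.13 in BSGX001 (adjusted p = 0.791) and rose by 0.62 ± 0.14 in XH7 (adjusted p = 0.00443), a call lost without X replicate 1 (adjusted p = 0.0504).

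INH1, the gene of the protein that stops ATP synthase from hydrolysing ATP, had the largest strain difference of complex V. It had 171 and 159 CPM in BSGX001 at the GX stage, against 109 and 83.0 CPM in XH7. At the X stage it had 127 and 134 CPM in BSGX001, against 61.2 and 62.2 CPM in XH7. All BSGX001 values lay above all XH7 values. INH1 was higher in BSGX001 by 0.77 ± 0.13 at the GX stage (adjusted p = 5.41e-04) and by 1.08 ± 0.13 at the X stage (adjusted p = 1.60e-04), and no left-out library ended either call. Its stage change in BSGX001, 0.34 ± 0.12, passed at an adjusted p of 0.0499 and was lost in 6 of 8 cases of a library left out, and it rose by 0.64 ± 0.13 in XH7 (adjusted p = 0.00367).

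More subunit genes were higher than lower in BSGX001, the strain that lacks COX4, at both stages. At the GX stage 18 of 39 genes were higher in BSGX001 and 5 lower, against 32.6% and 33.4% of all genes tested, with a median of 0.29 (all genes, -0.01). The 5 lower were RIP1, CYC1, CYC7, COX4 and COX12. RIP1 had 686 and 654 CPM in BSGX001, against 939 and 902 CPM in XH7, without overlap (-0.46 ± 0.13, adjusted p = 0.0136), and lost its call without either BSGX001 library at that stage. At the X stage 27 of 39 were higher and 3 lower (CYC7, COX4 and COX5B), against 29.0% and 26.5% of all genes, with a median of 0.47 (all genes, 0.03). For 31 of 39 at the X stage, both BSGX001 libraries lay above both XH7 libraries, a pattern of 41.4% of all genes, and at the GX stage 24 of 39, against 41.7% of all genes. Both lay below in 4 of 39 at the X stage and in 8 of 39 at the GX stage, against 37.9% and 43.1% of all genes. At 2-fold or more SDH2 was called higher at both stages and INH1 at the X stage, against 13.2% of all genes at the GX stage and 9.32% at the X stage. CYC7 and COX4 were called lower at both stages, against 10.8% and 6.20% of all genes.

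In complex V 13 of 15 genes were higher in BSGX001 at the X stage and none lower (median 0.52), and at the GX stage 8 of 15 were higher (median 0.33). In complex IV 6 of 9 were higher at the X stage (median 0.67 without COX4), led by COX7 at 0.84 ± 0.12 (adjusted p = 3.34e-04), and 5 of 9 at the GX stage (median 0.31), led by COX13, the subunit VIa gene, at 0.41 ± 0.11 (adjusted p = 0.00907), a call lost without BSGX001 GX replicate 2 (adjusted p = 0.066). In complex III 6 of 9 were higher at the X stage (median 0.38), led by QCR8 at 0.82 ± 0.11 (adjusted p = 2.65e-04). At the GX stage 2 of 9 were higher (median 0.08), and these were COR1 (0.51 ± 0.15, adjusted p = 0.0128) and QCR10. COR1 lost its call without either BSGX001 GX library (adjusted p = 0.0634 and 0.0522) or XH7 GX replicate 2 (0.35, adjusted p = 0.0819). Of complex II SDH2 alone passed at the X stage. In all, 13 genes were higher at both stages, 12 were higher at the X stage without passing at the GX stage, 2 were lower at both (CYC7 and COX4) and 2 had opposite calls (CYC1 and COX12). For these classes too, the share of all genes was not counted.

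The strain counts depend on single libraries. Leaving out either BSGX001 GX library or XH7 GX replicate 2 took the GX-stage share of higher subunit genes below that of all genes. Their median without COX4 was 0.26 and 0.28 without BSGX001 GX replicates 1 and 2, and 0.15 without XH7 GX replicate 2. The medians of all genes were -0.01, -0.02 and -0.00. Fewer genes were called lower there when either BSGX001 library was left out. At the X stage the median without COX4 was 0.41 without BSGX001 X replicate 1 and 0.38 without XH7 X replicate 1 (all genes, 0.01 and 0.00). How reads of XH7 aligned to the reference compared with those of BSGX001 was not tested.

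**Figure D4:**
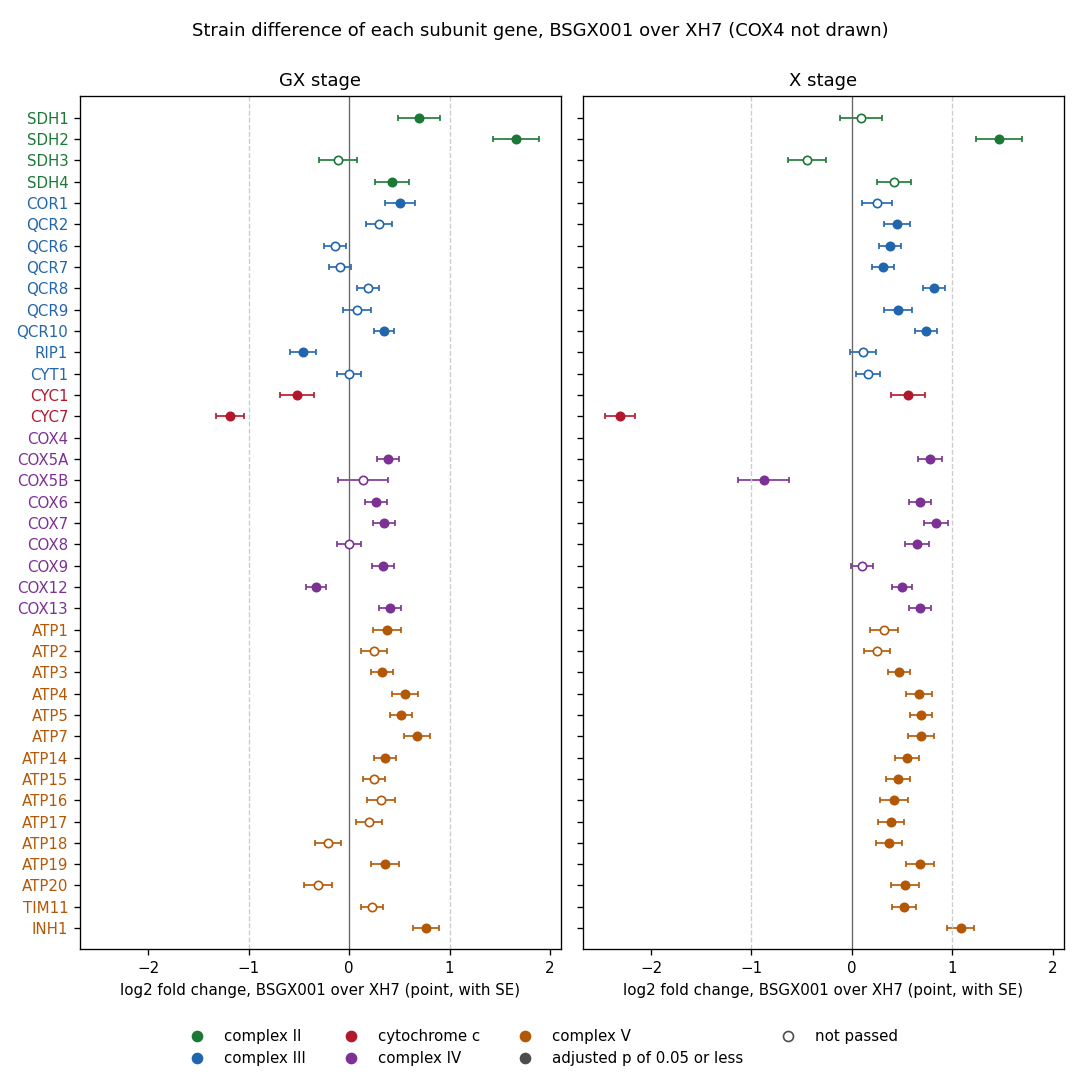
Log2 fold change (horizontal axis) of each subunit gene (rows, coloured by complex), BSGX001 over XH7, at the GX stage (left) and X stage (right); bars are the standard error of the fit, filled points passed an adjusted p of 0.05, and COX4, at 0 in BSGX001, is not drawn. SDH2 lies highest at both stages (1.66 and 1.46) and CYC7 lowest (-1.18 and -2.31).

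The stage change itself was compared between the strains as a difference of changes, BSGX001 minus XH7. Of 38 genes 1 was higher and 7 lower (2.63% and 18.4%), against 14.2% and 15.4% of all genes, with a median of -0.20 (all genes, -0.05). The share lower lay near that of all genes and the share higher lay below it. The 1 with the larger rise in BSGX001 was CYC7 (1.13 ± 0.20, adjusted p = 0.00335). CYC1 differed most in the other direction (-1.09 ± 0.24, adjusted p = 0.00994), followed by COX12 (-0.83 ± 0.14, adjusted p = 0.00283) and ATP20 (-0.83 ± 0.20, adjusted p = 0.0121). COX8 (-0.65 ± 0.17), QCR8 (-0.63 ± 0.15), ATP18 (-0.58 ± 0.19) and QCR6 (-0.53 ± 0.16) were the other 4 genes, with adjusted p of 0.019, 0.0147, 0.0423 and 0.0359. COX5B stood at 1.02 ± 0.35 and did not pass (adjusted p = 0.0548), but passed with DESeq2 size factors (adjusted p = 0.0478), without BSGX001 X replicate 2 (1.31, adjusted p = 0.0232) and without XH7 GX replicate 1 (1.52, adjusted p = 0.00471). At 2-fold or more, CYC7 was called higher and CYC1 lower, against 6.65% and 4.90% of all genes. No gene of complex II passed, with values between 0.01 (SDH4) and 0.62 (SDH1). Without XH7 GX replicate 1 SDH1 (0.95, adjusted p = 0.0252) and SDH3 (0.70, adjusted p = 0.0232) passed.

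CYC7 and COX12 kept their calls whichever library was left out. CYC1 lost its call without BSGX001 GX replicate 1 or XH7 X replicate 1, and ATP20 without BSGX001 GX replicate 2 or XH7 X replicate 1. QCR8 lost it in 3, COX8 in 4 and QCR6 and ATP18 in 7 of 8 cases. The count of lower genes was 3, 2 and 4 without BSGX001 GX replicate 1, GX replicate 2 and X replicate 1, and 1 without XH7 X replicate 1, and the count of higher genes was 2 without BSGX001 X replicate 2 and 4 without XH7 GX replicate 1.

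The scaling bears on this comparison, because TMM factors were 0.888 and 0.857 in XH7 at the X stage and between 0.999 and 1.08 in the other 6 libraries. With library totals in place of TMM the median of all genes moved to 0.24 in XH7 GX over X, 0.31 between strains at the X stage and -0.24 in the difference of changes, and 15 subunit genes were then lower in that difference. Of all genes 38.8% then rose and 13.8% fell in XH7, and 47.3% were higher and 15.6% lower between strains at the X stage. In the difference of changes 27.3% were then lower, and log2(FPKM + 1), which also has no TMM, gave 9.68% higher and 25.8% lower. Upper-quartile scaling gave 18.0% risen and 32.8% fallen in BSGX001. Taken relative to the median of all genes, the subunit genes without COX4 stood at 0.57 in XH7 GX over X under TMM. They stood at 0.44 between strains at the X stage and at -0.15 in the difference. Library totals gave the same 3 values. A scaling factor shifts all genes of a library alike, so this match was fixed in advance and is no test of the scaling.

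Levels of the genes of a complex were set side by side per length, as FPKM within a library. SDH2 was the most abundant gene of complex II in all 4 BSGX001 libraries, at 1961 and 1945 FPKM at the GX stage and 1569 and 1088 FPKM at the X stage. In XH7 that place was taken by SDH3, at 926 and 582 FPKM at the GX stage and 516 and 606 FPKM at the X stage. The most and least abundant genes of complex II were 2.53-fold to 3.32-fold apart in BSGX001 and 1.59-fold to 1.77-fold apart in XH7. In complex III QCR8 was the most abundant in BSGX001 and QCR7 in XH7. In complex V ATP2 was the most abundant in all 8 libraries, at 2368 and 2314 FPKM in BSGX001 at the GX stage against 2031 and 2053 FPKM at the X stage, and 1997 and 1643 FPKM in XH7 at the GX stage against 1374 and 1415 FPKM at the X stage. Within complex V the range from least to most abundant was 4.14-fold to 5.77-fold over the 8 libraries.

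Genes that feed, assist or regulate the chain were read from a list of 33, of which the 26 in the nuclear tables were tested. In BSGX001 13 rose and 1 fell at the GX stage, against 23.0% and 24.7% of all genes, and in XH7 11 rose and 3 fell, against 26.7% and 22.0%. The gene that fell in both strains was AAC3, an ADP/ATP carrier gene of low level in BSGX001 (1.74 and 1.41 CPM at the GX stage, 5.14 and 3.52 at the X stage). It stood at -1.45 ± 0.32 in BSGX001 (adjusted p = 0.00563) and -2.61 ± 0.25 in XH7 (adjusted p = 5.90e-05). Between strains 15 were higher and 5 lower at the GX stage, against 32.6% and 33.4% of all genes, and 13 were higher and 6 lower at the X stage, against 29.0% and 26.5%. All 3 paralogs of complex II subunits on the list rose in BSGX001. SHH3, the SDH3 paralog, had 141 and 142 CPM in BSGX001 at the GX stage, against 20.8 and 27.8 CPM at the X stage, and rose by 2.55 ± 0.13 (adjusted p = 4.99e-06). Its XH7 values were 14.0 and 12.2 CPM at the GX stage, against 8.10 and 9.28 CPM at the X stage, and SHH3 rose there by 0.59 ± 0.20 (adjusted p = 0.0385), a call lost in 6 of 8 cases of a library left out. SHH3 made up 27.4% and 27.1% of the FPKM of SHH3 and SDH3 in BSGX001 at the GX stage, against 7.30% and 9.91% at the X stage, and in XH7 2.71% and 3.69% at the GX stage, against 2.50% and 2.34% at the X stage. SHH4, the SDH4 paralog, rose by 1.89 ± 0.15 in BSGX001 (adjusted p = 3.73e-05) and stood at -0.02 ± 0.22 in XH7 (adjusted p = 0.963). SDH9, the SDH1 paralog, rose by 1.09 ± 0.15 in BSGX001 (adjusted p = 5.22e-04) and by 0.63 ± 0.20 in XH7 (adjusted p = 0.0283), a call lost there without GX replicate 1 or X replicate 1.

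Among the 6 electron donors of the chain, NDE2, GUT2 and NDI1 rose in BSGX001 and did not pass as higher in XH7. CYB2, the L-lactate cytochrome c reductase gene, rose by 0.55 in BSGX001 and 0.73 in XH7 (adjusted p = 0.0185 and 0.00443). DLD1, the D-lactate dehydrogenase gene, and NDE1 rose in XH7 (0.99 and 0.40, adjusted p = 9.76e-04 and 0.0235). In BSGX001 DLD1 and NDE1 stood at 0.33 and -0.07 and did not pass. DLD1 was lower in BSGX001 than in XH7, at -1.63 at the GX stage and -0.96 at the X stage. NDE2, an external NADH dehydrogenase gene, had 472 and 469.7 CPM in BSGX001 at the GX stage, against 63.5 and 74.5 CPM at the X stage. The XH7 libraries had 52.8 and 54.8 CPM at the GX stage, against 79.6 and 136 CPM at the X stage. The strains moved in opposite directions, 2.77 ± 0.21 in BSGX001 (adjusted p = 2.79e-05) and -1.01 ± 0.21 in XH7 (adjusted p = 0.00386), with a difference of changes of 3.78 ± 0.30 (adjusted p = 1.46e-04). GUT2, the glycerol 3-phosphate dehydrogenase gene, had 1635 and 1645 CPM in BSGX001 at the GX stage, against 546 and 635 CPM at the X stage (1.47 ± 0.12, adjusted p = 4.18e-05), and in XH7 307 and 347 CPM at the GX stage, against 416 and 396 CPM at the X stage (-0.31 ± 0.12, adjusted p = 0.0616). The difference of changes of GUT2 was 1.79 ± 0.17 (adjusted p = 3.65e-04). NDI1, the internal NADH dehydrogenase gene, rose by 0.41 ± 0.14 in BSGX001 (adjusted p = 0.039) and stood at 0.32 ± 0.14 in XH7 (adjusted p = 0.0867), with a difference of changes of 0.08 ± 0.20 that did not pass (adjusted p = 0.782). For NDE1, the other external one, the difference was -0.47 ± 0.17 (adjusted p = 0.07).

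Genes of supercomplex factors, which bind complexes III and IV together, were mixed. COX26 rose in BSGX001 (1.01 ± 0.16, adjusted p = 9.88e-04) and fell in XH7 (-0.61 ± 0.16, adjusted p = 0.0132), a call lost without XH7 GX replicate 2 or X replicate 2 and with library totals (adjusted p = 0.0532). RCF1 rose in both strains, by 0.50 ± 0.13 in BSGX001 (adjusted p = 0.0125), a call lost without either GX library, and by 0.97 ± 0.14 in XH7 (adjusted p = 4.45e-04). RCF2 stood at 0.06 ± 0.10 in BSGX001 (adjusted p = 0.679) and rose by 0.84 ± 0.10 in XH7 (adjusted p = 2.10e-04). Among regulators, HAP4, the activating subunit of the CCAAT-binding complex, had 652 and 640.1 CPM in BSGX001 at the GX stage, against 398 and 394 CPM at the X stage. XH7 had 536 and 460.2 CPM at the GX stage, against 324 and 346 CPM at the X stage. The stages were apart in both strains, and HAP4 rose by 0.71 ± 0.11 in BSGX001 (adjusted p = 0.00112) and by 0.57 ± 0.11 in XH7 (adjusted p = 0.00283).

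HAP3, a CCAAT-binding subunit, rose in XH7 (0.68 ± 0.13, adjusted p = 0.00185) and stood at 0.02 ± 0.11 in BSGX001 (adjusted p = 0.914), whereas HAP2 and HAP5 passed between stages in neither strain. HAP1, the heme-responsive activator, rose in BSGX001 (0.69 ± 0.10, adjusted p = 7.29e-04) and stood at 0.13 ± 0.10 in XH7 (adjusted p = 0.299). ROX1, the repressor of hypoxic genes, had 81.8 and 81.9 CPM in BSGX001 at the GX stage, against 235 and 362 CPM in XH7. Its X-stage values were 76.4 and 59.3 CPM in BSGX001, against 176 and 178 CPM in XH7. Every XH7 library lay above every BSGX001 library, and ROX1 was lower in BSGX001, at -1.86 ± 0.19 at the GX stage (adjusted p = 3.37e-05) and -1.38 ± 0.20 at the X stage (adjusted p = 3.41e-04). These are RNA levels, and protein or activity of the factors and of the complexes was not measured.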

How the data were processed

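RNA was sequenced from 8 libraries, 2 per strain and stage. The authors deposited expected counts and FPKM per gene for each library, with R64 named in the submitters' processing notes. The gene names, however, carry the suffix of a CEN.PK strain, the line of BSGX001's parent. Coding lengths of all 39 subunit genes equal those of R64, but other lengths differ, such as that of HAP1 (4248 against 4509 bases). How this bears on levels in XH7 against BSGX001 was not tested. For the aligner, shared reads and strand the sources used here say nothing. Further deposited tables with the authors' own fold changes and probabilities were not used.

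Expected counts were rounded to whole numbers, filtered with filterByExpr (minimum count 10, leaving 5921 of 6170 genes), scaled by TMM and tested with edgeR 4.0.16 in R 4.3.3 (quasi-likelihood test, 4 groups in 1 fit, Benjamini-Hochberg adjustment over all genes tested, limit 0.05). Errors are SE of the fit. P-values set a difference against the spread between duplicate fermentations, estimated over all 4 groups. With 1 clone per strain they do not cover variation between clones. FPKM served for levels between genes. CYC1, CYC7 and other pairs were aligned with Biopython 1.88, which also read the windows, and BLAST 2.17.0 served to search for similar coding sequences. Alternatives used DESeq2 1.42.0, limma 3.58.1 on log2(FPKM + 1) and log2(FPKM + 0.1), other scalings, filters and thresholds, a replicate block and each library left out. The code was tested on simulated data.

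The members and lists were chosen with earlier results of these data known. Per-library values are given for COX4, the isoform pairs, the SDH genes, members past 2-fold in a comparison or past the limit in the difference of changes. Per complex the largest and smallest changes are named, and the other members are given by count. Pathway genes with values were chosen after these were seen.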

Additional observations from a re-analysis of the deposited data

Results flagged for a closer look

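For 8 of 38 subunit genes the change from the X to the GX stage differed between the strains by a test of the difference itself (edgeR, BSGX001 minus XH7, log2). Of the 38, 1 was higher and 7 were lower (2.63% and 18.4%), against 14.2% and 15.4% of all genes tested. The share lower lay near that of all genes and the share higher lay below it, so no excess can be read from these counts. It was 1.13 for CYC7, whose rise was larger in BSGX001. It was -1.09 for CYC1, -0.83 for COX12, -0.83 for ATP20, -0.65 for COX8, -0.63 for QCR8, -0.58 for ATP18 and -0.53 for QCR6, all of which rose in XH7 and did not pass in BSGX001. QCR6 and ATP18 lost the call in 7 of 8 cases of a library left out.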

How the results depend on the processing

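Duplicates limit these results: each group rests on 2 libraries, and counts of called genes follow single libraries. With each library left out in turn, the subunit genes risen in BSGX001 numbered 8 to 25 and those fallen 0 to 1, and in XH7 18 to 32 and 0 to 1. Between strains they numbered 7 to 23 higher and 2 to 5 lower at the GX stage, and 16 to 29 higher and 2 to 4 lower at the X stage. In the difference of changes they numbered 1 to 4 higher and 1 to 7 lower. Upper-quartile scaling left 9 risen in BSGX001, against 18.0% of all genes. Library totals and both FPKM fits gave 3 lower between strains at the GX stage, against 28.4%, 27.3% and 27.2% of all genes. In the difference they gave 15 lower, against 27.3%, 25.8% and 25.7%. Both DESeq2 size factors and the DESeq2 Wald test gave 2 higher in the difference, against 16.3% and 13.6%. At 2-fold the counts were 1 risen in BSGX001, 3 in XH7, 1 higher and 2 lower between strains at the GX stage and 2 higher at the X stage. At an adjusted p of 0.01 they were 9 risen in BSGX001 and 6 higher and 2 lower between strains at the GX stage. The share of all genes at that limit was not counted. The cause of these shifts was not tested.

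Values that changed sign belonged to calls that had not passed. ATP18 in BSGX001 was -0.07 with upper-quartile scaling. SDH3 between strains at the GX stage was 0.04 in both FPKM fits. In the difference of changes SDH4 was -0.02 with upper-quartile scaling, -0.17 with library totals and -0.16 with FPKM, and ATP1 was -0.12 with library totals and -0.11 with FPKM. With a library left out, values ran from -0.56 to 0.02 for CYC1 and from -0.13 to 0.20 for ATP18 in BSGX001 GX over X. In XH7 they ran from -0.00 to 0.60 for SDH1, -0.01 to 0.60 for SDH2, -0.15 to 0.51 for SDH3, -0.00 to 0.35 for COR1, -0.78 to 0.07 for COX5B and -0.02 to 0.34 for ATP1. Between strains they ran from -0.41 to 0.26 for SDH3, -0.22 to 0.63 for COX5B and -0.02 to 0.03 for COX8 at the GX stage, and from -0.17 to 0.27 for SDH1 and -0.09 to 0.26 for RIP1 at the X stage. In the difference they ran from -0.06 to 0.55 for SDH2, -0.22 to 0.28 for SDH4 and -0.11 to 0.25 for ATP1.

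Deviations from group means of samples with the same replicate number gave r between -0.238 and 0.219 over pairs of groups. With 2 libraries per group these values cannot decide whether the numbers pair the samples. With the replicate number as a block, 14 subunit genes rose in BSGX001 and 28 in XH7, against 21.6% and 25.1% of all genes. Between strains 16 and 25 were higher at the GX and X stages, against 31.9% and 28.2%. In the difference 1 was higher and 5 lower, against 13.0% and 13.9%.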
